A study of Mus musculus with 6 samples.

Results

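The keratin family was described here in the luminal epithelial layer of the mouse uterus and in the blastocysts of the same pregnancies, on the evening of day 4, shortly before embryos attach. Its members are the genes whose symbol is Krt followed by a number, which gave 52 of the 23420 genes in both count tables. Keratins are the intermediate filament proteins of epithelial cells. A filament is built from pairs of an acidic type I and a basic or neutral type II keratin, so each epithelium makes at least 1 of each type. Krt8 and Krt18 are the first pair made in development and mark the trophectoderm, the outer cell layer of the blastocyst that meets the uterus. The same pair, together with Krt7 and Krt19, marks the uterine epithelium, while other members build the filaments of stratified skin, cornea and hair.

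Leukemia inhibitory factor (Lif) is a cytokine that mice need for embryo attachment, and the study asked what it does in the uterus at this stage. The control females carried the Lif-floxed/floxed alleles and received PBS. The eKO females were Lif-floxed/floxed and carried Ltf-Cre/+, a Cre driver active in the uterine epithelium, and received PBS. A further group of Lif-floxed/floxed Ltf-Cre/+ females received recombinant Lif (rLif) at 20 µg per head by intraperitoneal injection at 10 am and 6 pm, and tissue was taken 2 h after the second dose. All were dissected at 8 pm on Day 4, and the floxed alleles were common to the females of every group. The embryos of all groups were labelled Lif-floxed/+, and their treatment labels were PBS for the control and eKO groups and rLif for the third. Each of the 6 groups was 1 library, made from luminal RNA of several laser-microdissected samples or from blastocysts of several mice, which were pooled. There was therefore no replicate for any value below, no test between conditions could be made, and every interval covers counting error only. A difference compares 2 libraries, and in such bulk samples fewer cells of a type and less RNA per cell cannot be told apart.

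The luminal libraries held 23850565 to 28460465 counts and the blastocyst libraries 18996158 to 19638852. Lif itself had 0 luminal counts in the library labelled control, 28 in that labelled eKO (0.975 CPM, counts scaled to library size) and 0 in that labelled eKO + rLif. The 28 counts go against the label eKO. The paper places Lif in the glands at this stage, so 0 counts in luminal control do not bear on that label. The counts cover the whole gene, including parts outside the floxed exons. Libraries are therefore named throughout by their labels. In blastocysts Lif had 1447, 1736 and 1250 counts in the same order. Epithelial markers other than keratins (10 genes, among them Cdh1 and Epcam) were all detected in every luminal library, with summed levels of 8684 to 9389 CPM. Trophectoderm markers other than keratins (10 genes, among them Cdx2 and Eomes) were all detected in every blastocyst library, at 4870 to 5455 CPM.

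The keratin genes lie in 2 clusters (GRCm38/mm10). The cluster on chromosome 11 holds 27 type I genes within 1.04 Mb, all on the minus strand. That on chromosome 15 holds 24 type II genes and 1 type I gene, Krt18, within 0.682 Mb. Krt8 (exons between 101996711 and 102004342, minus strand) and Krt18 (102028216 to 102032026, plus strand) stand back to back at its end, 23873 bases apart. Krt7 lies near the other end (101412403 to 101427806, plus strand), and Krt19 lies in the chromosome 11 cluster (100140811 to 100145919, minus strand). RefSeq promoters (GRCm38.p6) were matched by symbol to 35 of the 52 members, and Krt19 had no entry. The 250 bases before the start are shown for the abundant neighbours Krt8 and Krt18, for Krt7, and for Krt10, Krt36 and Krt79, which with Krt8 were higher in the luminal library labelled eKO. Capitals mark every match, on either strand, to the 5 motifs searched, which were TTCNNNGAA (the STAT consensus), TGANTCA (that of AP-1), GCCNNNGGC (that of AP-2), the TATA box core TATAAA, and the GC box written GGGCGG.
Krt8 (chr15:102004343-102004592, minus strand): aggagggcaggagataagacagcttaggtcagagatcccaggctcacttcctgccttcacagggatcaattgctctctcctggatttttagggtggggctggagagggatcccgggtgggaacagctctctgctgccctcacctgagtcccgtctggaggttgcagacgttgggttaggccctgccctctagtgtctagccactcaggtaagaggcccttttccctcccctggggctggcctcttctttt
Krt18 (chr15:102027966-102028215, plus strand): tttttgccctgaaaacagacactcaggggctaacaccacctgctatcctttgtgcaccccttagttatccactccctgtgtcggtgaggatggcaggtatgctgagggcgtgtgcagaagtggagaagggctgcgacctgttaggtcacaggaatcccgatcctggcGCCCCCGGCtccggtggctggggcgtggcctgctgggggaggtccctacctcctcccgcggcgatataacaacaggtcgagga
Krt7 (chr15:101412153-101412402, plus strand): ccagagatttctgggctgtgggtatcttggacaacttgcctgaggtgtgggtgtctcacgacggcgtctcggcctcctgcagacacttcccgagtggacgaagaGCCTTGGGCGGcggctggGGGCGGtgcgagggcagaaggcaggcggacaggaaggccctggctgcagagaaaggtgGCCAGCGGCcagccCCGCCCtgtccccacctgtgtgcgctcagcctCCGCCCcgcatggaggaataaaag
Krt10 (chr11:99389365-99389614, minus strand): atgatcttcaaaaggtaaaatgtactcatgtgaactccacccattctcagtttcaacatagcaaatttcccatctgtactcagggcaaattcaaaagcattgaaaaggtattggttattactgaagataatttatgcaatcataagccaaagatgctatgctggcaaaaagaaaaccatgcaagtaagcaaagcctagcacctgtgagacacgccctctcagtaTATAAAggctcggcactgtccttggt
Krt36 (chr11:100105627-100105876, minus strand): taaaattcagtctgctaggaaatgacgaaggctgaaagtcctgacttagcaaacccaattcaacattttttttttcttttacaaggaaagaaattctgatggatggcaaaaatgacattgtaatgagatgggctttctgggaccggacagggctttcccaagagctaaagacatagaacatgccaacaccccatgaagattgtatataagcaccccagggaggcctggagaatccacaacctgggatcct
Krt79 (chr15:101940325-101940574, minus strand): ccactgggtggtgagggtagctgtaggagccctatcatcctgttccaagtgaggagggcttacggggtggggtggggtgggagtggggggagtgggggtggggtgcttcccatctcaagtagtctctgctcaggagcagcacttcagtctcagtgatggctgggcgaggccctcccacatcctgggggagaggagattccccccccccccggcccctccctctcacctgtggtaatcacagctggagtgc
The promoters of Krt8, Krt36 and Krt79 held none of these letters in this window. Krt18 held 1 GCCNNNGGC, and Krt7 held 2 of them and 4 GGGCGG, 1 of which overlaps a GCCNNNGGC. Krt10 held a TATAAA that begins 26 bases before the start. The GC content was 58.0% for Krt8, 60.4% for Krt18, 66.0% for Krt7, 39.6% for Krt10, 42.8% for Krt36 and 64.0% for Krt79. Across the family, TATAAA was found in 17 of 35 keratins (48.6%) and in 12.4% of all 32851 promoters, and GGGCGG in 2 keratins (5.71%) and 32.7% of all promoters. The keratins with TATAAA were those of hair and stratified epithelia and, among the simple epithelial ones, Krt20, while Krt7, Krt8 and Krt18 had none. TTCNNNGAA was in 11.4% of keratins and 7.02% of all, TGANTCA in 2.86% and 6.75%, and GCCNNNGGC in 11.4% and 13.7%.

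Most keratin genes had no or few counts in these tissues. In the luminal layer 23 members had no count in any library, 9 had 1 to 9 counts summed over the 3 libraries and 20 had at least 10, the minimum for a comparison. In blastocysts 24 had no count, 15 had 1 to 9 and 13 had at least 10. Only 10 members passed this minimum in both tissues, 10 passed in the luminal layer alone, 3 in blastocysts alone and 29 in neither, of which 14 had no count in any of the 6 libraries. A count of 0 allows up to 3 counts in a library, so low levels of these were not detectable at this depth. The members without any count included the injury-associated pair Krt6a and Krt6b, the epidermal Krt2, Krt9 and Krt77, and the hair keratins Krt31, Krt33a, Krt33b, Krt40, Krt81 and Krt84. All 5 simple epithelial keratins passed in the luminal layer and 4 in blastocysts, where Krt20 had no count. Of the 15 hair shaft keratins, 3 passed in the luminal layer and 0 in blastocysts.

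Among the simple epithelial keratins of the luminal layer, Krt19 and Krt8 differed between libraries while Krt18 was nearly level. Levels were compared between genes only per length, as RPKM (CPM per kilobase of exon). Krt18, the type I partner of Krt8, stood at 1088 RPKM in the library labelled control, 993 in that labelled eKO and 959 in that labelled eKO + rLif. Krt8, its type II partner, stood at 464, 957 and 336 RPKM in the same order. Krt19, a type I keratin of simple epithelia that also pairs with Krt8, stood at 246, 1448 and 254 RPKM. The library labelled eKO was thus the high one for Krt8 and Krt19, and the control and eKO + rLif libraries were close to each other for Krt19 and lower in the latter for Krt8. Krt7, the other type II keratin of simple epithelia, stood at 113, 129 and 85.1 RPKM. Krt20, a type I keratin of intestinal and urothelial cells, had 20, 0 and 0 counts.

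In ratios of scaled counts, Krt19 in the library labelled eKO was 5.88-fold above that labelled control, a log2 ratio of 2.56 (95% counting interval 2.52 to 2.59), and 5.71-fold lower in eKO + rLif than in eKO (log2 ratio -2.51, -2.54 to -2.48). Between eKO + rLif and control its log2 ratio was 0.04 (0.00 to 0.09), and -0.06 to -0.24 under 4 of the 5 other scalings tried. Krt8 was 2.06-fold higher in eKO than in control (log2 ratio 1.04, 1.02 to 1.07) and 2.85-fold lower in eKO + rLif than in eKO (-1.51, -1.54 to -1.48). Krt8 shares 26.9% of the 50-base words of its transcripts with its pseudogene Krt8-ps, so its level is uncertain, whereas no word of Krt19 was shared. Krt18 had log2 ratios of -0.13 for eKO against control, -0.18 for eKO + rLif against control and -0.05 for eKO + rLif against eKO. Krt7 had 0.19, -0.41 and -0.60 in that order. The ranks of these genes among the 15694 luminal genes compared show the same shift on the RPKM scale. Krt19 stood at rank 402 in control, 35 in eKO and 491 in eKO + rLif. Krt8 stood at ranks 190, 85 and 368, and Krt18 at 46, 77 and 100. Of the 111 genes at least as abundant as Krt19 over the 3 luminal libraries, 4 had a higher log2 ratio of eKO to control and 1 had a lower log2 ratio of eKO + rLif to eKO.

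**Figure D1:**
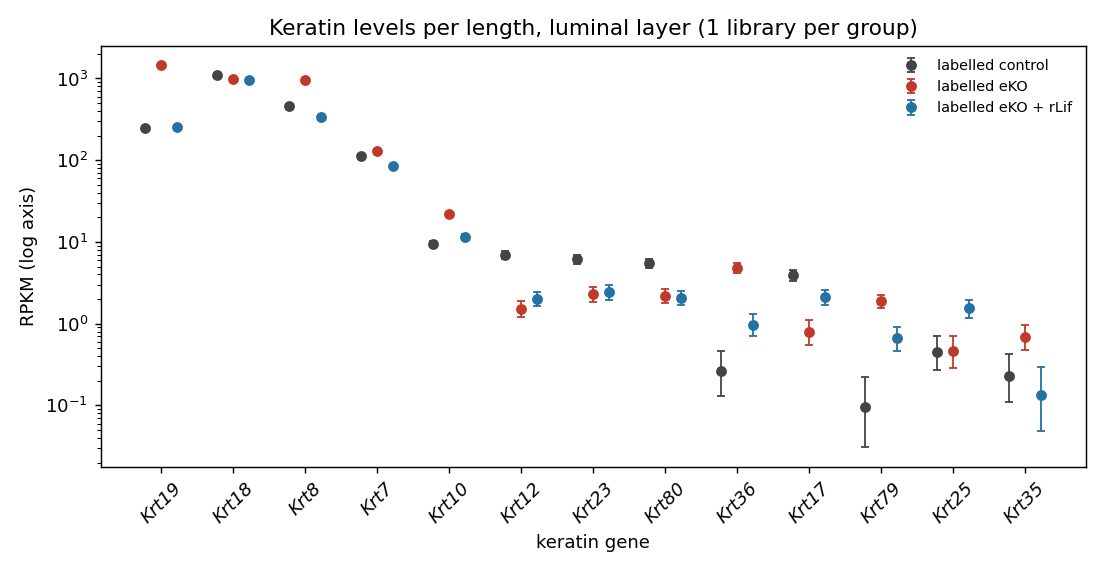
Levels of the 13 keratins that reached 1 CPM in a luminal library, in RPKM on a log axis, with 1 point per library and bars for the exact 95% Poisson interval. Krt19 in the library labelled eKO (1448 RPKM) stands above the other 2 libraries (246 and 254), and Krt18 lies between 959 and 1088.

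A difference was called when its whole 95% counting interval lay beyond a log2 ratio of 1, that is more than 2-fold. For eKO against control, 13 of the 20 luminal keratins compared were called (65%), with 8 higher and 5 lower, beside 17.2% of all genes (8.08% higher and 9.15% lower). Of the 20, 5 passed the minimum only through the library where they were highest (Krt1, Krt13, Krt15, Krt20 and Krt76). The filter favoured a difference between libraries for these in advance. All of them but Krt13 were among the 13 calls for eKO against control. Among the 13 keratins with at least 50 summed counts 9 were called, beside 16.2% of all genes with such counts. Of these 13, Krt25, Krt35 and Krt79 reached 50 only through their highest library, so this minimum also favoured a difference for them. Krt79 was called for both groups against control, and Krt25 and Krt35 for eKO + rLif against eKO. For eKO + rLif against control, 5 of 20 were called (25%), 2 higher and 3 lower, beside 9.16% of all genes (4.12% higher and 5.04% lower), and 3 of the 13 with at least 50 counts, beside 7.61%. For eKO + rLif against eKO, 7 of 20 were called (35%), 1 higher and 6 lower, beside 15.6% (7.88% higher and 7.77% lower), and 5 of the 13, beside 14.2%. These comparisons share libraries. The median log2 ratio was 1.04 over 19 keratins, -0.41 over 17 and -0.92 over 19 in the order of the comparisons. That of all genes was 0.01, 0.01 and -0.01. For these medians a count of 0 was set at 3, and genes with 3 or fewer counts in both libraries were left out. The keratin medians include members that passed the minimum only through their highest library, so no shift of the family is read from them.

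The keratins of stratified and cornifying epithelia and of hair were far below the simple ones, and they moved in both directions. Krt10, a type I keratin of the suprabasal epidermis, was the fifth most abundant, at 9.37, 21.95 and 11.6 RPKM in control, eKO and eKO + rLif. It was 2.34-fold higher in eKO than in control (log2 ratio 1.23, 1.08 to 1.38). Its usual type II partner Krt1 had 0, 20 and 0 counts. Against a floor of 3 counts per library, eKO was 5.86-fold above control and eKO + rLif 6.04-fold below eKO (log2 limits 2.12 and -2.16). Both partners were thus highest in the library labelled eKO, although Krt1 stayed under 1 CPM there. Krt76, a type II keratin of the oral mucosa, had 0, 27 and 0 counts, 7.91-fold higher and then 8.16-fold lower on the same floor (log2 limits 2.59 and -2.63). Krt15, a type I keratin of basal cells, had 0, 12 and 1 counts, which puts eKO 3.52-fold above control on that floor (log2 limit 1.29). Krt13, a type I keratin of mucosal epithelia, had 0, 2 and 10 counts. On that floor it was 3.23-fold higher in eKO + rLif than in control (log2 limit 1.12).

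Krt12, a type I keratin best known from the corneal epithelium, went the other way. It had 326, 81 and 97 counts, and its log2 ratio was -2.19 (-2.56 to -1.84) for eKO and -1.79 (-2.14 to -1.46) for eKO + rLif, each against control. Krt17, a type I keratin induced in injured epithelium, had 149, 34 and 83 counts, a log2 ratio of -2.32 (-2.90 to -1.77) for eKO against control. Its value in eKO + rLif lay between the others, with log2 ratios of -0.89 against control and 1.43 (0.84 to 2.05) against eKO that were not called. Krt80, a type II keratin, had 248, 111 and 96 counts, with log2 ratios to control of -1.35 (-1.68 to -1.02) and -1.41 (-1.77 to -1.07). Krt23, a type I keratin, had 238, 101 and 97 counts and was called lower for eKO alone, at -1.42 (-1.77 to -1.08), while eKO + rLif at -1.34 (-1.70 to -0.99) just missed the limit. Krt12, Krt23, Krt80 and Krt20 were thus high in the control library and similar in the other 2. With its counts of 0 set at 3, Krt20 was 7.58-fold lower in eKO and 6.88-fold lower in eKO + rLif than in control (log2 limits -2.49 and -2.35).

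The detected keratins of hair differed in which library was highest. Krt36, a type I keratin of the hair shaft family, had 11, 230 and 42 counts. It was 18.4-fold higher in eKO than in control (log2 ratio 4.20, 3.33 to 5.22) and lower in eKO + rLif than in eKO (-2.31, -2.82 to -1.83). Krt79, a type II keratin of the hair canal and sebaceous gland duct, had 5, 114 and 36 counts. Its log2 ratio to control was 4.33 (3.06 to 5.98), or 20.0-fold, in eKO and 2.80 (1.45 to 4.51) in eKO + rLif. Both genes kept an intermediate value in the library labelled eKO + rLif. Krt35 of the hair shaft had 10, 34 and 6 counts and was called lower in eKO + rLif than in eKO alone (-2.36, -3.90 to -1.09). Krt25 of the inner root sheath had 19, 22 and 66 counts, and was called higher in eKO + rLif than in eKO (1.73, 1.01 to 2.49), a call that 4 of the 5 other scalings tried did not keep. Part of Krt25 (10.9% of its 50-base words) is shared with other type I keratins, mainly Krt27 and Krt28. Hair shaft members under 10 counts in sum were highest in control (Krt32 with 7, 2 and 0 counts, and Krt39 with 1, 0 and 0), in eKO (Krt86 with 0, 5 and 0) or in eKO + rLif (Krt85 with 2, 0 and 6). Krt83 (6, 16 and 20 counts) and Krt222 (8, 8 and 2 counts) were not called in any comparison, and the exons of Krt81, Krt83 and Krt85 overlap those of other genes in the tables, so that their counts are uncertain.

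**Figure D2:**
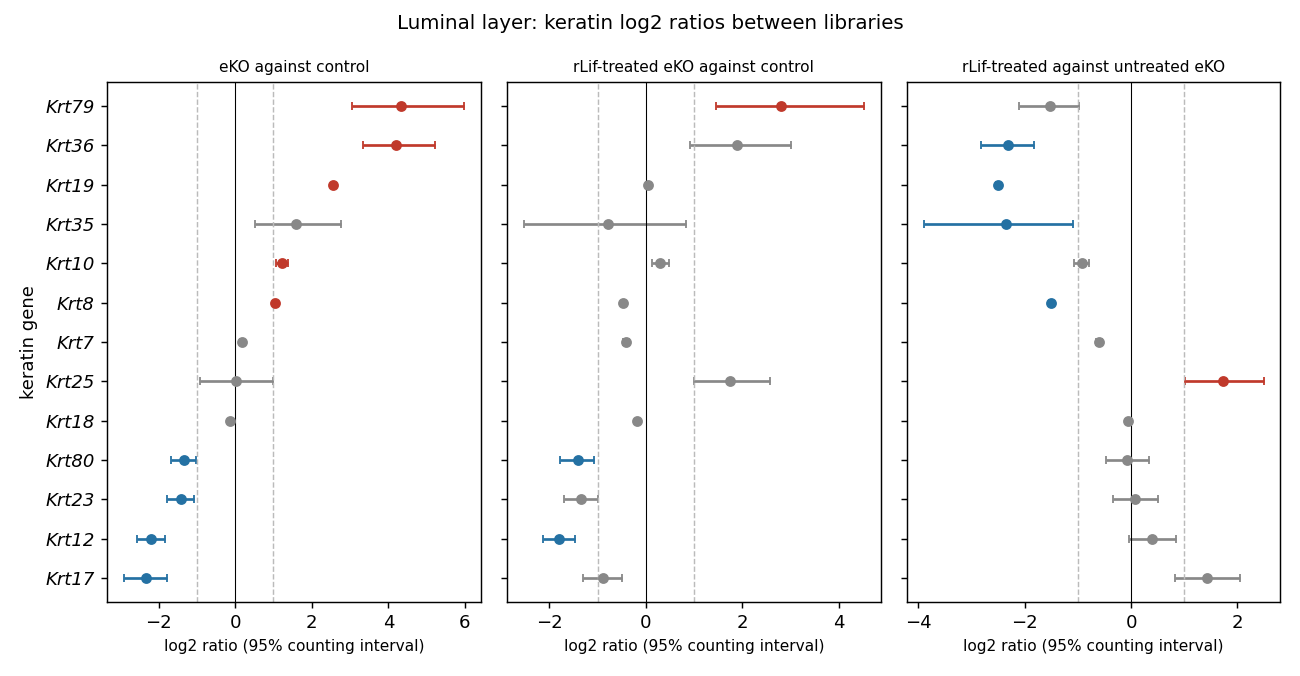
Log2 ratios of TMM-scaled counts for the 13 keratins that reached 1 CPM in a luminal library, 1 panel per comparison, with bars for the 95% counting interval, dashed lines at -1 and 1, and red or blue points where the whole interval lies beyond them. Krt79, Krt36 and Krt19 stand farthest to the right for eKO against control (4.33, 4.20 and 2.56) and Krt17 farthest to the left (-2.32).

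Together the keratins took 0.311% of all counts in the luminal library labelled control (95% exact binomial interval 0.309 to 0.314), 0.544% (0.541 to 0.546) in that labelled eKO and 0.232% (0.230 to 0.234) in that labelled eKO + rLif. The make-up of this total also differed. Krt18 made up 55.9% of summed keratin RPKM in control, 27.9% in eKO and 57.8% in eKO + rLif. Krt19 made up 12.6%, 40.6% and 15.3%. The order of the most abundant members was Krt18, Krt8, Krt19 and Krt7 in the control and eKO + rLif libraries, and Krt19, Krt18, Krt8 and Krt7 in eKO, with no overlap of counting intervals between neighbours. Below them stood Krt10 in all 3 libraries, and after it Krt12, Krt23 and Krt80 overlapped in order in control.

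Ratios between members of 1 library do not depend on how libraries are scaled. Krt8 per Krt18, by length, was 0.427 (0.420 to 0.434) in control, 0.963 (0.951 to 0.976) in eKO and 0.351 (0.344 to 0.357) in eKO + rLif, so the pair was closest to equal in eKO. Krt19 per Krt18 was 0.226, 1.46 and 0.265. All type II keratins per all type I keratins moved less, at 0.428, 0.441 and 0.344. The type II total was 583 RPKM in control and 1091 in eKO, and the type I total was 1362 and 2475.

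**Figure D3:**
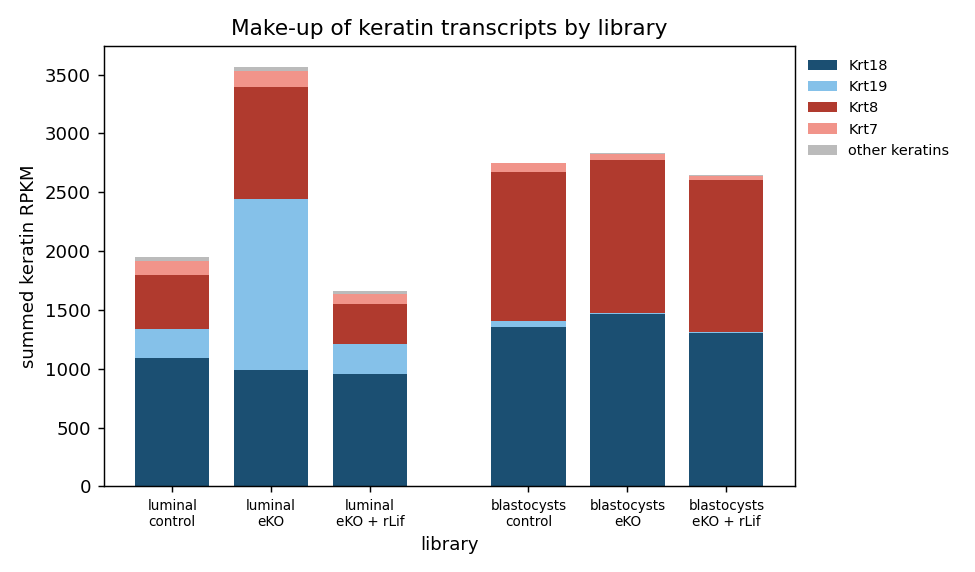
Summed keratin RPKM in each of the 6 libraries, stacked by member, with type I keratins in blue and type II in red. The luminal library labelled eKO (3566 RPKM) exceeds the other luminal libraries (1946 and 1658) through Krt19 and Krt8, while the blastocyst libraries (2647 to 2837) are nearly all Krt8 and Krt18.

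Gene lists that bear on keratin filaments were read beside the luminal shares over all genes given above, 8.08% higher and 9.15% lower for eKO against control. Those shares were 4.12% and 5.04% for eKO + rLif against control, and 7.88% and 7.77% for eKO + rLif against eKO. Of 20 genes compared for filament anchors and plakins, the desmosomal and cytolinker proteins that hold keratin filaments, 0 were higher and 2 lower in eKO than in control, at a median of -0.14 on the log2 scale. These were Eppk1, epiplakin (391, 153 and 271 counts, log2 ratio -1.54), and Dsg3, a desmosomal cadherin (108, 41 and 49, -1.58). Jup, plakoglobin, was the 1 call for eKO + rLif against control (1898, 1160 and 876 counts, -1.16), and Itga6, a hemidesmosomal integrin, the 1 call for eKO + rLif against eKO (976, 840 and 1887 counts, 1.31). Of 14 other intermediate filament genes, 3 were higher and 3 lower in eKO than in control, among them Nes, nestin (128, 577 and 259 counts, 1.99), and Nefh, a neurofilament subunit (137, 5 and 52 counts, -4.96). For eKO + rLif against control 0 of these 14 were called, and against eKO 3 were higher and 2 lower. Of 17 transcription and splicing factors known to act on epithelial genes, 1 was higher and 6 lower in eKO than in control, with a median of -0.56. The lower ones included Grhl1 (227, 61 and 292 counts), Tfap2c (124, 7 and 107), Ovol2 (1699, 813 and 1836) and Tead4 (107, 0 and 173). In these 4 the library labelled eKO was the low one. The other called members are not given here, so no pattern of the list is read from these. For eKO + rLif against control only Elf5 was called, as lower (75, 76 and 5 counts), and against eKO 4 were higher and 2 lower.

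Markers of other cells moved between the luminal libraries as well, and their part in the keratin differences was not tested. The summed level of 12 stromal markers was 960, 1337 and 928 CPM in control, eKO and eKO + rLif, and all 12 were detected in every library. That of 8 smooth muscle markers was 78.2, 55.3 and 35.5 CPM, with 7 genes compared and 1 at 0 in each of control and eKO. That of 7 mesothelial markers was 16.9, 33.8 and 21.7 CPM, with 5 compared. Its members went in different directions, with Upk3b (145, 0 and 0 counts), Msln (21, 0 and 0) and Lrrn4 (8, 0 and 0) seen in the control library alone, Wt1 (221, 858 and 468) and Gpm6a (0, 21 and 5) called higher in eKO than in control, Upk1b (32, 92 and 91) not called and Bnc1 at 0 in all. Immune markers (9 genes) stood at 1043, 958 and 1024 CPM, endothelial ones (8 genes) at 61.2, 77.5 and 105 CPM, and glandular ones (6 genes) at 8.44, 6.55 and 19.9 CPM. Without keratins, the epithelial markers had a median of 0.02 on the log2 scale between eKO and control, and the highest of their 3 sums was in eKO + rLif (9283, 8684 and 9389 CPM). Most of each sum was Cldn3 (5608, 5639 and 4765 CPM). Of these 10 markers, 0 were higher and 2 lower in eKO than in control, beside 8.08% and 9.15% of all genes. Cldn4 (2047, 955 and 1149 counts, log2 ratio -1.29) was 1 of the 2.

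In blastocysts Krt8 and Krt18 were high and level across libraries, and Krt19 and Krt7 had their highest value in the control library. Blastocyst libraries were scaled apart from the luminal ones, so levels are given side by side without a ratio. Krt8 stood at 1262 RPKM in the library labelled control, 1306 in eKO and 1295 in eKO + rLif. Krt18 stood at 1356, 1463 and 1306 RPKM. Their ranks among 14873 genes lay between 15 and 22 in every blastocyst library, nearer the top than in any luminal one. Krt8 per Krt18 was 0.930 (0.918 to 0.944), 0.893 (0.881 to 0.905) and 0.991 (0.977 to 1.00), and together the pair made up 95.1% to 98.3% of summed keratin RPKM. All keratins took 0.440%, 0.449% and 0.424% of counts. The log2 ratio of either gene farthest from 0 between blastocyst libraries was -0.16, for Krt18 in eKO + rLif against eKO.

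Krt19 had 1401 counts in the blastocyst library labelled control, 241 in eKO and 108 in eKO + rLif, or 53.5, 8.97 and 4.04 RPKM. It was 5.96-fold lower in eKO than in control (log2 ratio -2.58, -2.78 to -2.38) and 13.2-fold lower in eKO + rLif than in control (-3.73, -4.02 to -3.44). Between eKO + rLif and eKO the log2 ratio of -1.15 (-1.49 to -0.82) was not called. Krt7 had 2268, 1556 and 1102 counts, with log2 ratios to control of -0.58 (-0.67 to -0.49) and -1.07 (-1.17 to -0.96), which were not called. Both genes had their values in the same order of libraries, with control highest, while Krt8 and Krt18 did not. Of the 6218 genes at least as abundant as Krt19 over the 3 libraries, 2 had a lower log2 ratio of eKO to control, and 2 a lower one of eKO + rLif to control.

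**Figure D4:**
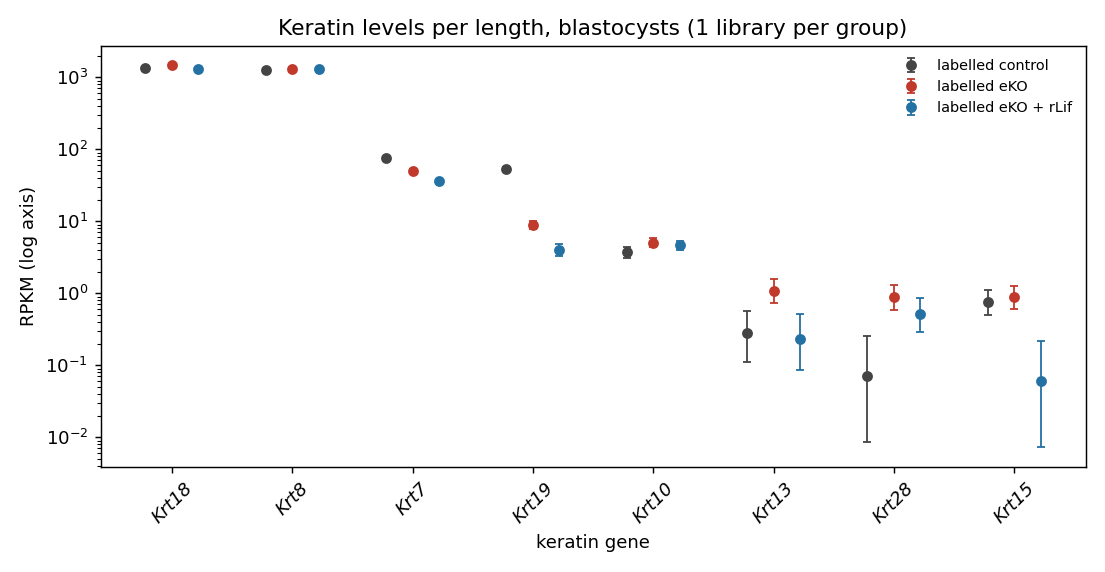
Levels of the 8 keratins that reached 1 CPM in a blastocyst library, in RPKM on a log axis, with 1 point per library and bars for the exact 95% Poisson interval. Krt8 and Krt18 lie between 1262 and 1463 RPKM in all 3 libraries, while Krt19 goes from 53.5 in control to 4.04 in eKO + rLif.

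The other blastocyst keratins were sparse. Krt10 had 148, 206 and 188 counts and was not called. Krt28, a type I keratin of the inner root sheath, had 2, 26 and 15 counts and was called higher in eKO than in control, with a wide interval (log2 ratio 3.66, 1.67 to 6.78). Krt15 had 25, 30 and 2 counts and was lower in eKO + rLif than in control (-3.67, -6.79 to -1.67) and than in eKO (-3.90, -7.01 to -1.92). Krt5, the type II keratin of basal cells, had 6, 11 and 0 counts. With the 0 set at 3 counts it was 3.65-fold lower in eKO + rLif than in eKO (log2 limit -1.32). Krt13 had 7, 28 and 6 counts and was not called. Krt1, Krt23, Krt27 and Krt80 each had 11 or fewer counts in every library and were not called. In all, 2 of 13 keratins were called for eKO against control (15.4%), 1 higher and 1 lower, beside 3.15% of all genes (1.29% higher and 1.86% lower). Of these 13, 5 passed the minimum only through the library where they were highest (Krt1, Krt5, Krt23, Krt27 and Krt80). Among them only Krt5 was called, and only in the comparison of eKO + rLif with eKO. The filter favoured that difference in advance. For eKO + rLif 2 were called lower against control, beside 4.94% of all genes (0.948% higher and 3.99% lower), and 2 lower against eKO, beside 3.75% (0.914% higher and 2.83% lower). Among the 6 keratins with at least 50 summed counts, 1, 2 and 1 were called in the order of the comparisons, beside 1.69%, 3.62% and 2.63% of all genes with such counts. Of these 6, Krt15 reached 50 only through its highest library, so this minimum also favoured a difference for it. It was the 1 call for eKO + rLif against eKO and 1 of the 2 for eKO + rLif against control. The median log2 ratio was 0.44 over 11 keratins, -0.01 over 12 and -0.79 over 13, and that of all genes was 0.00, -0.01 and -0.01. These keratin medians also include members that passed the minimum only through their highest library, so no shift of the family is read from them.

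A few genes of the uterus were present in the blastocyst libraries. Several of those named below, which were chosen after their values were seen, were highest in the control library, as Krt19 was. The summed level of the whole uterine epithelium list was about the same in control and eKO. Most of that sum came from members not named below, so it does not describe the named ones. Of 12 markers of uterine epithelium, 10 were compared and 2 were at 0 in each library, and their summed level was 71.5, 72.9 and 44.9 CPM in control, eKO and eKO + rLif. On the log2 scale their median was -0.30 for eKO and -1.61 for eKO + rLif against control. For eKO 1 gene was higher and 0 lower (1.29% and 1.86% of all genes), and for eKO + rLif 0 were higher and 3 lower (0.948% and 3.99%). Hoxa10 had 48, 17 and 6 counts and Hoxa11 24, 10 and 1, and both were called lower in eKO + rLif than in control. Pax8 had 36, 16 and 11 counts, Esr1 24, 20 and 8 and Pgr 24, 20 and 9. Calb1, a calcium-binding protein gene that was high in the luminal library labelled eKO, had 49, 201 and 18 blastocyst counts and so did not follow Krt19. The proportion of Krt19 to these genes differed from that in the luminal layer of the same group. In control there were 29.2 Krt19 counts per Hoxa10 count in blastocysts and 2.88 in the luminal layer, and 38.9 and 1.29 per Pax8 count. In the groups labelled eKO the values were 14.2 in blastocysts and 13.3 in the luminal layer per Hoxa10 count, 15.1 and 16.9 per Pax8 count, 24.1 and 33.8 per Hoxa11 count and 1.20 and 0.326 per Calb1 count. They were 12.1 and 26.3 per Esr1 count, and 12.1 and 32.9 per Pgr count. So in eKO the proportion was lower in blastocysts for 4 of these 6 genes and higher for Hoxa10 and Calb1. Krt7 had 91.5 counts per Hoxa10 count in blastocysts labelled eKO and 1.37 in the luminal layer, and in control 47.2 and 1.53. In eKO + rLif, where blastocysts held 6 Hoxa10 counts, they were 18.0 and 3.97. The part of uterine RNA in the blastocyst values of Krt19 was not otherwise tested.

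**Figure D5:**
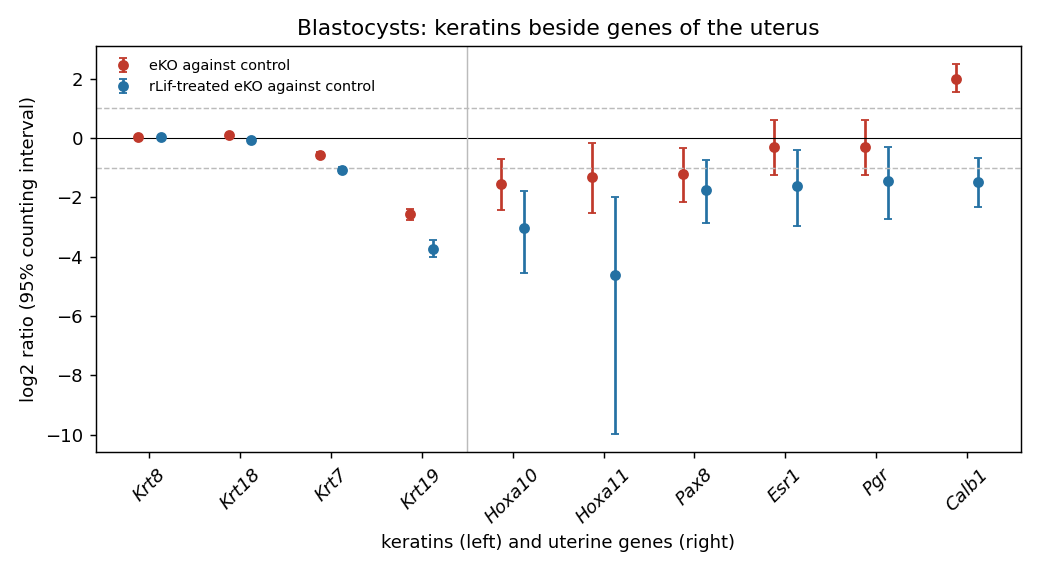
Log2 ratios to the control library in blastocysts for 4 keratins (left) and 6 genes of the uterus (right), with bars for the 95% counting interval and dashed lines at -1 and 1. Krt8 and Krt18 lie near 0, Krt19 at -2.58 in eKO and -3.73 in eKO + rLif, and Calb1 is the 1 uterine gene with a positive value.

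Markers of the embryo's own lineages were also compared. Over all blastocyst genes, 1.29% were higher and 1.86% lower in eKO than in control. The shares were 0.948% and 3.99% for eKO + rLif against control, and 0.914% and 2.83% for eKO + rLif against eKO. The 10 inner cell mass markers summed to 3487, 3690 and 3873 CPM, and the 10 primitive endoderm markers to 2438, 2462 and 1907 CPM. Of the primitive endoderm markers 3 were lower in eKO + rLif than in control, with a median of -0.67 on the log2 scale, and 2 lower than in eKO, with a median of -0.58, beside 3.99% and 2.83% of all genes. Of the trophectoderm markers 0 were called for eKO against control, and Elf5, a trophectoderm regulator, was called lower for eKO + rLif against control (1988, 1311 and 902 counts). Immune markers (9 genes) stood at 76.1, 134 and 28.8 CPM, and stromal ones (12 genes) at 180, 208 and 182 CPM. Although these stromal sums were close, 1 of the 11 stromal genes compared was lower in eKO (1.86% of all genes) and 5 in eKO + rLif (3.99%), with medians of -1.0 and -1.28 on the log2 scale, each against control. Hoxa10 and Hoxa11 belong to both this list and that of uterine epithelium, so their calls in eKO + rLif count in both. Of 22 filament anchors compared, only Dsc3, a desmosomal cadherin (265, 80 and 64 counts), was called, as lower in both groups against control. Of 16 other intermediate filament genes, Vim, vimentin (191, 72 and 100 counts), was called lower in eKO than in control, and Nefl (400, 382 and 135 counts) lower in eKO + rLif than in either of the others.

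Set side by side, the 2 tissues shared the same 5 leading keratins, Krt7, Krt8, Krt10, Krt18 and Krt19, but differed in their make-up. Krt8 and Krt18 were near equal per length in every blastocyst library and in the luminal library labelled eKO alone. Krt19 made up 1.94%, 0.316% and 0.153% of keratin RPKM in blastocysts and at least 12.6% in the luminal layer. Its log2 ratio of eKO to control was 2.56 in the luminal layer and -2.58 in blastocysts.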

How the data were processed

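RNA of the luminal layer, collected by laser microdissection, and of blastocysts was pooled per group before library preparation (SMART-seq v4). The authors aligned reads with HISAT2 to GRCm38/mm10 and counted them with featureCounts (Subread 2.0.0), and the deposited values are raw counts per gene. Strand and multiple-mapping settings are not given in the sources used here. The study's methods describe normalized values, but every deposited value is a whole number, and totals differ between libraries.

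Each tissue was scaled separately by TMM (edgeR 4.0.16, R 4.3.3). Where the 3 libraries of a tissue held 10 or more counts of a gene in sum, it was compared by the ratio of scaled counts with an exact (Clopper-Pearson) 95% interval, called beyond a log2 ratio of 1. Counts of 0 were set at a floor of 3 for folds and medians, with the other count taken as exact. RPKM used TMM-scaled library sizes and the deposited exon lengths, with exact Poisson intervals. A single library per group leaves the dispersion unknown, so no p-value was computed. The procedure was tested on simulated data. The simulated counts held counting error alone, with changes placed in well-counted genes only. Variation between samples and changes at low counts were therefore not tested. Intervals cover counting error only, since each group was 1 library. Reads carried no molecular identifiers, so amplified copies could not be told from separate molecules, and the intervals may be too narrow.

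Keratins with at least 1 CPM in a library are given in full, and others where called. Only some of the called members of the gene lists are named, so those named do not stand for their list. Hoxa10, Hoxa11, Pax8, Esr1, Pgr and Calb1 in blastocysts, the mesothelial markers and the genes of the promoters shown were chosen after their values were seen. The members and lists were chosen with earlier results of these data known.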

Additional observations from a re-analysis of the deposited data

Results flagged for a closer look

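Krt19 differed in opposite directions in the 2 tissues. Its log2 ratio of the library labelled eKO to that labelled control was 2.56 in the luminal layer (8537 and 57150 counts) and -2.58 in blastocysts (1401 and 241 counts). The difference between tissues was not tested, since each group was 1 library. The luminal value returned to the control level in the library labelled eKO + rLif (9081 counts) and the blastocyst value did not (108 counts). Hoxa10, a gene of the uterus chosen after its values were seen, had 48, 17 and 6 counts in the blastocyst libraries labelled control, eKO and eKO + rLif. Of the other genes of the uterus named above, Calb1 was highest in eKO (49, 201 and 18 counts). Esr1 (24, 20 and 8) and Pgr (24, 20 and 9) were nearly level in control and eKO, while Hoxa11 and Pax8 were lower in eKO. The part of uterine RNA in the blastocyst value of Krt19 was not tested.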

How the results depend on the processing

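No paired analysis was possible because each group was 1 library, and for the same reason no library could be left out. With DESeq2 (1.42.0) size factors none of the 63 ratios of named keratins moved beyond its counting interval. Under all 5 scalings tried, DESeq2 included, 257 of 315 values stayed within it, 58 moved and 0 that were called changed sign. Of ratios that were not called, 6 changed sign, among them luminal Krt19 for eKO + rLif against control (0.04, and -0.13, -0.06, -0.10 and -0.24 under total counts, marker scaling, without the 20 genes and TPM) and blastocyst Krt18 for the same comparison (-0.05, and 0.19 under marker scaling). Total counts shifted the median log2 ratio of all luminal genes by -0.07 for eKO against control and by -0.18 for eKO + rLif against control, TPM by -0.17 and -0.29, scaling on the epithelial markers by 0.12 and -0.10, and leaving out the 20 most abundant genes by -0.02 and -0.14. In blastocysts scaling on the trophectoderm markers shifted them by 0.09 and 0.24. In the luminal comparison of eKO with control, Krt8 lost its call under total counts and TPM, Krt10 under TPM, and Krt23 and Krt80 under the marker scaling. For eKO + rLif, Krt13 lost its call against control under total counts, TPM and without the 20 genes, and Krt25 against eKO under each scaling but DESeq2. Under total counts, TPM and without the 20 genes, Krt23 became lower against control and Krt79 lower against eKO, so that 1 keratin was higher and 4 lower against control, and 0 higher and 7 lower against eKO. Marker scaling also made Krt23 lower against control, Krt79 and Krt10 lower against eKO, and blastocyst Krt28 higher for eKO + rLif against control. The share of higher calls among all luminal genes for eKO + rLif against control was 44.99%, and 29.9%, 32.2% and 21.7% under total counts, without the 20 genes and with TPM. For eKO against control it was 46.9%, and 35.5% with TPM. For eKO + rLif against eKO it was 50.3%, and 37.6% with the marker scaling. In blastocysts it was 19.2% for eKO + rLif against control, and 36.0% with the marker scaling.

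The numbers of keratins called, 13, 5 and 7 in the luminal layer, became 6, 1 and 3 with a log2 limit of 2 in place of 1, and 5 and 7 became 15 and 14 with a limit of 0. An edgeR exact test at an assumed dispersion of 0.1 called 8, 1 and 4, and a minimum of 50 counts left 3 for eKO + rLif against control. Krt36, Krt19, Krt79, Krt20, Krt1 and Krt76 passed the limit of 2 for eKO against control. The blastocyst numbers, 2 in each comparison, became 1, 1 and 0 with the limit of 2, 8, 7 and 6 with the limit of 0, and 0, 1 and 0 in the exact test, the call that remained being Krt19. A minimum of 50 counts left 1 for eKO against control and 1 for eKO + rLif against eKO. The limit or minimum itself set these changes, while the exact test differed from the interval rule in both its method and its dispersion, which were not separated. Without the 20 most abundant other genes, keratins took 0.357%, 0.646% and 0.273% of luminal counts and 0.475%, 0.484% and 0.458% of blastocyst counts.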
